A study of Mus musculus with 8 samples.

Results

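The collagen gene family was followed across the spinal cord transcriptome of young mice that lack the miR-34/449 microRNAs and of wild-type mice. Its members were every protein-coding gene whose symbol is Col, a number, a and a number, which gave 44 of the 41325 genes in the deposited tables. By textbook class, 11 were fibrillar collagens, 6 were basement membrane collagens of type IV and 27 were other collagens. RNA was sequenced from lumbar and thoracic cord at postnatal day 14. Wild-type mice were labelled C57BL/6J WT, and knockout mice carried the label Mir34a-/-; Mir34bc-/-; Mir 449-/- TKO. Each of the 4 groups of segment and genotype had 2 libraries. The labels name no strain for the TKO mice, so genotype and strain background cannot be told apart. They do not state that libraries came from separate mice either, or whether lumbar and thoracic libraries share mice. P-values thus rest only on scatter among these libraries, part or all of which may be technical.

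Collagens are proteins of the extracellular matrix built from chains that wind into a triple helix. Fibrillar collagens form the fibres that bear tension, fibril-associated collagens (FACITs) decorate the surface of such fibres, and type IV collagens form the sheet beneath endothelium and glial endfeet. In the spinal cord the fibrous types are known mainly from the meninges, nerve roots and large vessels, whereas type IV surrounds every capillary. MicroRNAs of the miR-34/449 family pair through their seed, bases 2 to 8, with sites in messenger RNAs and lower their output.

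The deleted microRNAs are shown first because their common seed defines the sites searched for in the collagen transcripts. The 4 mature sequences below are from RefSeq (GRCm38.p6), written 5′ to 3′ with the seed in capitals, and all 4 have the seed GGCAGUG.
mmu-miR-34a-5p: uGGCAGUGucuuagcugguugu
mmu-miR-34b-5p: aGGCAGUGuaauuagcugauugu
mmu-miR-449a-5p: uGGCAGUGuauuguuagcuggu
mmu-miR-449c-5p: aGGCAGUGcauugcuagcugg
In these libraries of polyadenylated RNA the genes at the deleted loci (Mir34a; Mir34b and Mir34c; Mir449a, Mir449b and Mir449c) were counted at 0 everywhere, WT included, and so check no label.

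The reverse complement of the seed, CACTGCC, was searched on the transcript strand of the longest annotated 3′ UTR of each gene (GENCODE vM21, GRCm38). It occurred in 9 of the 44 collagens, or 20.5%, and in 2996 of 20993 protein-coding genes, or 14.3%. The median length of these UTRs was 1032.5 bases for collagens and 961 for all genes. The shares were not matched for length, and their difference was not tested. Those 9 collagens were Col4a3, Col4a4, Col4a6, Col6a1, Col6a2, Col6a6, Col9a3, Col12a1 and Col23a1. Sites of the 2 most abundant collagens, of the type VI pair and of the adjacent type IV genes Col4a3 and Col4a4 follow, with the match in capitals and 10 bases on each side.
Col9a3: acacataaagCACTGCCtcacaatatg
Col23a1: cctgaaacccCACTGCCccagcttctc
Col6a1: tcttcctcctCACTGCCcctaacctat
Col6a2: taaaggcatgCACTGCCatgccccact
Col4a3: ctagcacaggCACTGCCacataaatac
Col4a4: aacctttctaCACTGCCagcattagca
The Col9a3 site lies at chr2:180621980-180622006 on the plus strand, and the Col23a1 site at chr11:51580404-51580430 on the plus strand. Those of Col6a1 and Col6a2 lie on the minus strand at chr10:76709262-76709288 and chr10:76598934-76598960. The Col4a3 site is at chr1:82721627-82721653 (plus strand) and this Col4a4 site, the first of a pair in that UTR, at chr1:82452515-82452541 (minus strand). An A follows the match in Col4a3, Col6a2 and this Col4a4 site. No match was found in the 3′ UTR windows of Col20a1, Col14a1, Col1a1, Col1a2 or Col3a1.

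Depth was 16195212 to 20907819 gene reads per library, with 94.7% to 95.6% placed uniquely. All 44 collagens had reads in every library, and together they took 645 to 1241 CPM (counts scaled to the library's gene reads, here without TMM factors). Mitochondrially encoded transcripts took 4.99% to 16.8% of reads, and in 4 of 4 groups the library with the smaller mitochondrial share had the larger collagen sum. In lumbar TKO, for example, replicate 1 had a mitochondrial share of 12% and a collagen sum of 704 CPM, and replicate 2 had 4.99% and 1013. The 2 TKO replicate 2 libraries also had the largest intron shares, 6.23% and 6.69%, against 4.39% to 5.22% in the other libraries.

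On the scale of RPKM, exon reads scaled to exon length and depth as the authors deposited it, levels spanned from 16.5 for Col9a3 to 0.0470 for Col17a1 as means of 8 libraries. Col9a3, a chain of the FACIT type IX known from cartilage, had an RPKM of 18.4 and 14.3 in lumbar WT against 15.6 and 20.5 in lumbar TKO, and 10.1 and 13.8 in thoracic WT against 16.9 and 22.1 in thoracic TKO. Next in mean RPKM were Col23a1, a transmembrane collagen, at 9.17, and the basement membrane chains Col4a1 at 8.70 and Col4a2 at 8.18. Col1a2 followed at 7.30, Col6a1 at 6.52, Col1a1 at 6.41 and Col3a1 at 5.98. The 5 highest collagens held 41.8% to 52.0% of the summed collagen RPKM in a library. A mean of 1 RPKM or more was reached by 23 members, and 4 lay under 0.1. Col10a1 with 34 reads and Col17a1 with 47 reads over all libraries did not pass the filter on low counts, which left 42 members tested.

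**Figure D1:**
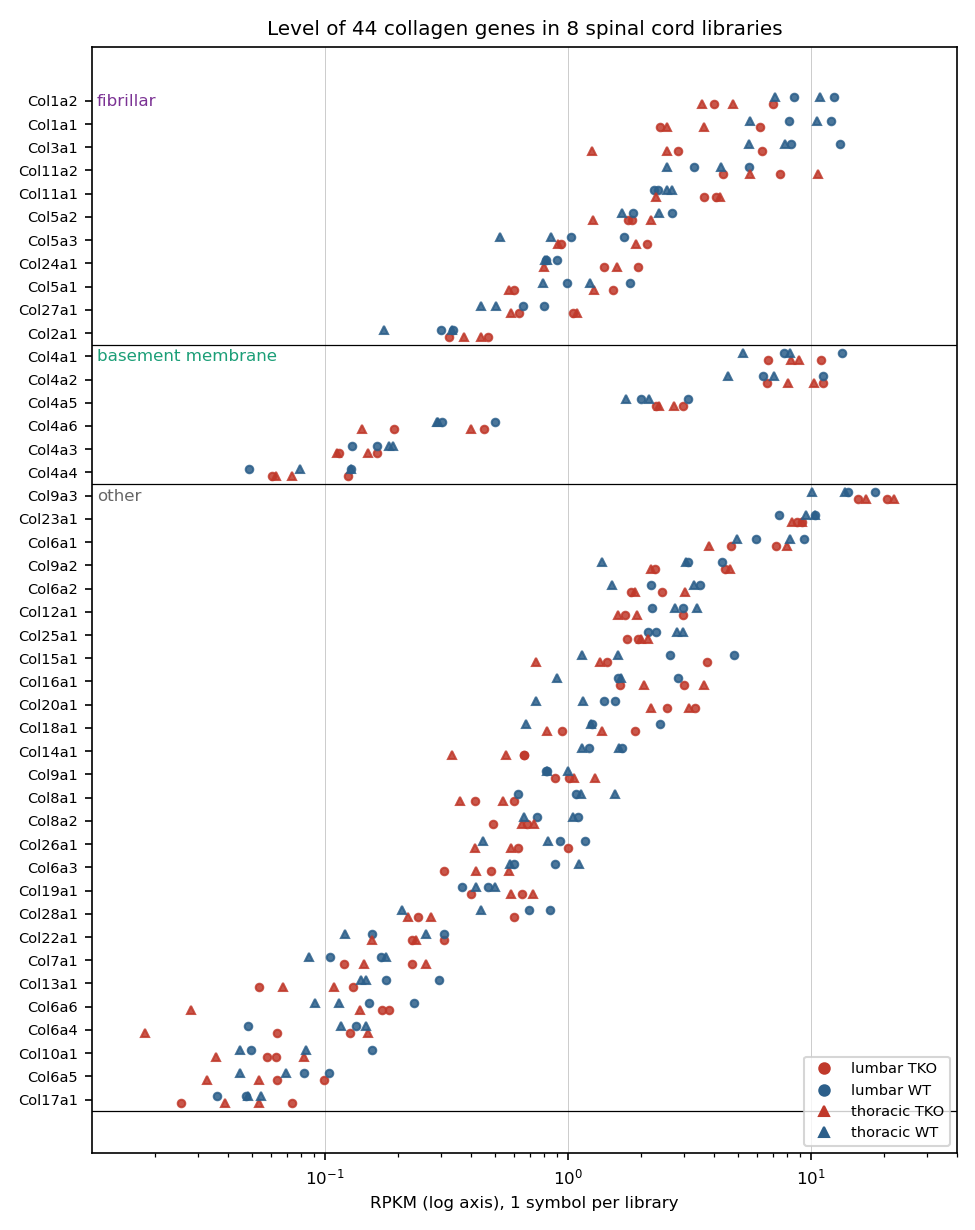
RPKM (log axis) of each of 44 collagens in each library, ordered by mean within the classes fibrillar, basement membrane and other; circles are lumbar, triangles thoracic, red TKO and blue WT. Col9a3 is highest with a mean of 16.5 RPKM, and each class mixes high and low members. For Col1a1 and Col3a1 the highest TKO symbol, lumbar replicate 2, lies among the WT symbols on this scale.

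Over both segments, 2 of 42 collagens changed with genotype, beside 0.357% of the 17067 genes tested (edgeR's quasi-likelihood test, adjusted p under 0.05). Col20a1 rose, beside 0.223% of all genes, Col14a1 fell, beside 0.135%, and both are FACITs. The type I and III chains Col1a1, Col1a2 and Col3a1 had log2 changes of -1.33, -1.04 and -1.55 without passing the test. In bulk tissue, fewer cells of a type and less RNA per cell cannot be told apart. Higher values in TKO were fitted for 16 collagens and lower values for 26, with a median log2 change of -0.21, beside 50.1% of all genes above 0. Of these signs, 31 (18 below 0 and 13 above) held in all 21 alternatives and 11 changed in at least 1 of them. The alternatives include a crossed replicate block, described at the end, that was chosen after the data were seen. At an unadjusted p under 0.05, 9 collagens were higher and 9 lower, beside 10.3% and 8.79% of all genes.

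Whole separation of the genotypes in TMM-scaled CPM, used from here on, was seen in both directions. All 4 TKO libraries lay above all 4 WT libraries for Col20a1 and Col2a1, 2 of 42, beside 5.32% of all genes. All 4 TKO libraries lay below all 4 WT libraries for Col1a1, Col1a2, Col3a1, Col6a3, Col8a1 and Col14a1, 6 of 42, beside 5.37% of all genes.

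**Figure D2:**
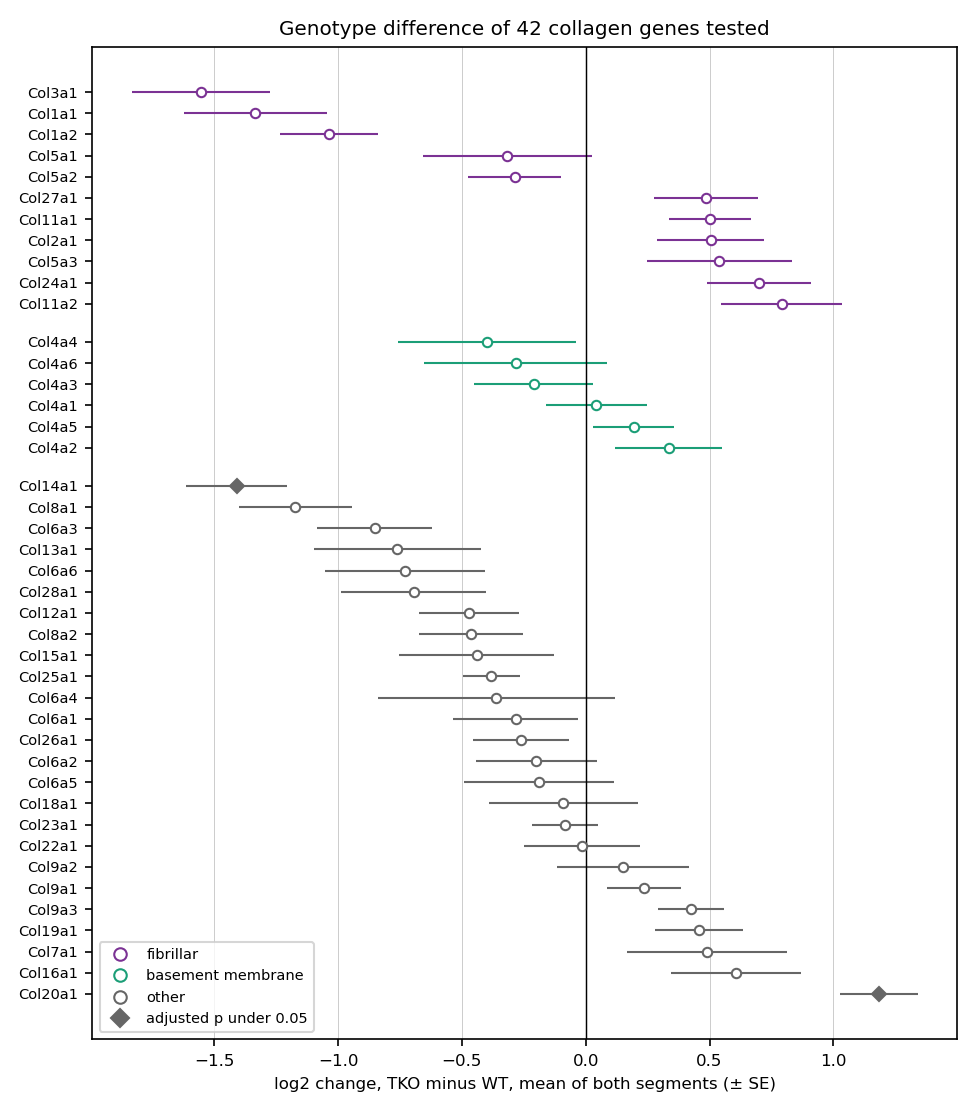
Log2 change, TKO minus WT as the mean of both segments, with its standard error, for 42 collagens in 3 classes; filled diamonds have an adjusted p under 0.05. Col20a1 at 1.18 and Col14a1 at -1.41 are the diamonds, and the fibrillar class splits into 5 members below 0 and 6 above it.

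Col20a1, a FACIT chain, lies on chromosome 2 (180986535 to 181018363, plus strand, mm10). Its CPM was 11.1 and 10.1 in lumbar WT against 19.8 and 23.7 in lumbar TKO, and 6.69 and 8.39 in thoracic WT against 16.4 and 21.6 in thoracic TKO. Every TKO library was above every WT library in both segments. The means were 20.4 ± 3.12 CPM in TKO and 9.08 ± 1.95 in WT (SD, n = 4 each), a log2 change of 1.18 (SE 0.157, adjusted p = 0.0254). The lumbar log2 change was 1.03 and the thoracic 1.33, neither passing its own test (adjusted p 0.484 and 0.121). Introns held 28.2% of the Col20a1 reads, and a gene model on the same strand, 9230112E08Rik, overlaps it with 1121 reads in all. That model had a log2 change of 0.46 (adjusted p = 0.160). Counted on exon reads alone, Col20a1 had a log2 change of 1.25 and an adjusted p of 0.0544. Left-out libraries gave 1.08 to 1.28, with 2 of 8 such fits passing (adjusted p 0.0251 to 0.159); the fits that passed lacked a lumbar TKO library.

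Col14a1 is a FACIT of tendon and skin that binds the surface of type I fibres. Its CPM was 12.7 and 9.36 in lumbar WT against 5.13 and 4.58 in lumbar TKO, and 9.34 and 11.6 in thoracic WT against 4.22 and 2.52 in thoracic TKO. Again no TKO library reached the lowest WT library. Col14a1 averaged 4.11 ± 1.12 CPM in TKO and 10.8 ± 1.69 in WT (SD, n = 4 each), a log2 change of -1.41 (SE 0.204, adjusted p = 0.0346). With a single library left out the log2 change ran from -1.61 to -1.25, and only the fit without lumbar TKO replicate 1 passed (adjusted p 0.0415 to 0.156). On exon reads the adjusted p was 0.0657.

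Among the other FACITs, the type IX chains had log2 changes of 0.23 for Col9a1, 0.15 for Col9a2 and 0.42 for Col9a3; that of Col9a2 turned sign in 4 alternatives, down to -0.33. Col9a3 had 77.4 and 62.4 CPM in lumbar WT against 70.7 and 84.4 in lumbar TKO, and 47.6 and 57.6 in thoracic WT against 77.8 and 93.1 in thoracic TKO. The genotypes overlapped in lumbar cord and were separate in thoracic cord. Over both segments, none of the 3 passed in edgeR, limma-voom or DESeq2 (Col9a3 SE 0.133, edgeR adjusted p = 0.172). Col9a3 alone had an unadjusted p under 0.05 there, and DESeq2 called it higher in thoracic cord. Tcfl5 overlaps Col9a3 on the opposite strand with 308 reads in all. Col12a1, which binds type I fibres as Col14a1 does, had a log2 change of -0.47 (adjusted p = 0.253).

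**Figure D3:**
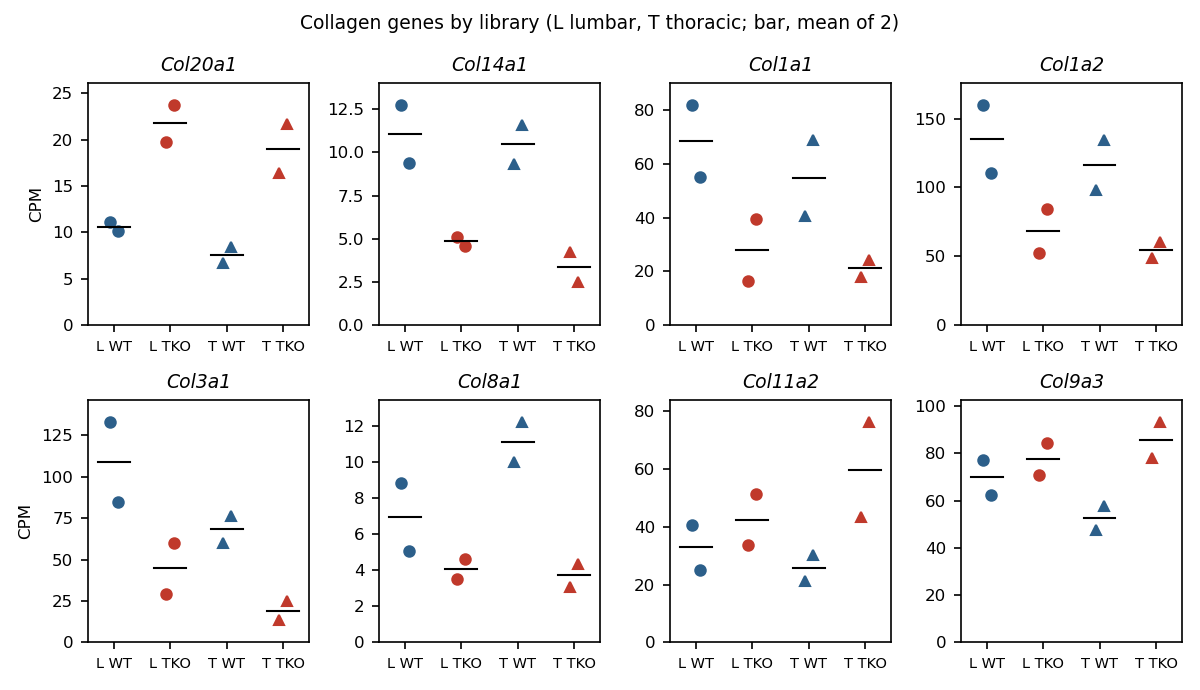
CPM of 8 collagens in each library (linear axes from 0; bars are means of 2). Col20a1 is higher in TKO in both segments, Col14a1, Col1a1, Col1a2, Col3a1 and Col8a1 have lower TKO values without overlap, and Col11a2 and Col9a3 overlap in lumbar cord.

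No fibrillar collagen passed the test over both segments with edgeR. At an unadjusted p under 0.05, 5 of 11 were higher and 3 lower, beside 10.3% and 8.79% of all genes. DESeq2, which called 631 of 26446 genes with reads, called Col1a1, Col1a2, Col3a1 and Col11a2, and limma-voom called none of the 11. Col3a1, the homotrimer of extensible tissue and vessel walls, had 133 and 84.5 CPM in lumbar WT against 29.4 and 59.9 in lumbar TKO, and 60.2 and 76.2 in thoracic WT against 13.3 and 25.2 in thoracic TKO. The highest TKO value, in lumbar replicate 2, was just under the lowest WT value, in thoracic replicate 1. The log2 change was -1.55 (SE 0.279, adjusted p = 0.0573).

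Type I collagen, the main fibre of dura and nerve sheaths, is made of the chains Col1a1 and Col1a2. Col1a1 had 81.9 and 55.2 CPM in lumbar WT against 16.6 and 39.4 in lumbar TKO, and 40.7 and 68.9 in thoracic WT against 18.1 and 24.2 in thoracic TKO. Col1a2 had 160 and 110 CPM in lumbar WT against 52.4 and 84.3 in lumbar TKO, and 98.0 and 134 in thoracic WT against 48.5 and 60.7 in thoracic TKO. Both chains were lower in all TKO libraries than in any WT library, and within lumbar TKO replicate 2 was the higher for each. In RPKM, which is not TMM-scaled, that library overlapped WT for Col1a1 (6.18 against a lowest WT value of 5.61) and for Col3a1 (6.30 against 5.56). The log2 change was -1.33 for Col1a1 (SE 0.289, adjusted p = 0.0947) and -1.04 for Col1a2 (SE 0.198, adjusted p = 0.0707). Without lumbar TKO replicate 2, the log2 changes of Col1a1, Col1a2 and Col3a1 were -1.71, -1.23 and -1.85. Without lumbar TKO replicate 1, whose Schwann cell markers stood apart as given below, they were -1.08, -0.88 and -1.33. Each of these fits leaves lumbar TKO with a single library.

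Type V chains Col5a1 and Col5a2, which nucleate type I fibres, had log2 changes of -0.32 and -0.29 (adjusted p 0.604 and 0.401). The remaining fibrillar genes lay above 0. Col11a1 and Col11a2, type XI chains known from cartilage fibrils, had log2 changes of 0.50 and 0.79 (adjusted p 0.188 and 0.168). Col11a2 had 40.6 and 25.2 CPM in lumbar WT against 33.5 and 51.5 in lumbar TKO, and 21.3 and 30.3 in thoracic WT against 43.3 and 76.2 in thoracic TKO. Its genotypes overlapped in lumbar cord and not in thoracic cord. Col11a1 had 31.7 and 30.7 CPM in lumbar WT against 50.5 and 51.7 in lumbar TKO, and 37.2 and 34.6 in thoracic WT against 32.3 and 55.4 in thoracic TKO. Here the separation was in lumbar cord and the overlap in thoracic cord.

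Col24a1, a fibrillar collagen of developing bone and cornea, had 7.26 and 6.81 CPM in lumbar WT against 11.8 and 14.8 in lumbar TKO, and 7.55 and 6.33 in thoracic WT against 6.77 and 12.7 in thoracic TKO. Only thoracic TKO replicate 1 fell among the WT values. The log2 change was 0.70 (SE 0.210, adjusted p = 0.161). Col2a1, the cartilage fibre, and Col5a3 and Col27a1 had log2 changes of 0.50, 0.54 and 0.49, with no adjusted p under 0.252. The 5 genes below 0 had a median log2 change of -1.04 and the 6 above 0 a median of 0.52; the division was made after their values were seen and carries no test. All 11 fibrillar genes had the same sign in lumbar and thoracic cord. Over 21 alternatives no sign changed among the 5, and among the 6 only Col5a3 changed sign, without both TKO replicate 2 libraries.

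Basement membrane collagens showed small differences over both segments, with log2 changes between -0.40 for Col4a4 and 0.34 for Col4a2. In thoracic cord the changes ran from -0.70 for Col4a4 to 0.68 for Col4a2, and in lumbar cord from -0.43 to 0.10. The sign was the same in lumbar and thoracic cord for 3 of 6. None of the 6 passed in edgeR, none had an unadjusted p under 0.05, and neither DESeq2 nor limma-voom called one. Col4a1 and Col4a2, which form the common type IV trimer of vessels, are described in full below with their ratio. Col4a5 had 22.1 and 14.2 CPM in lumbar WT against 16.9 and 19.6 in lumbar TKO, and 13.0 and 14.7 in thoracic WT against 17.4 and 18.7 in thoracic TKO. For Col4a5 the genotypes overlapped in lumbar cord, while both thoracic TKO values lay above both thoracic WT values. Its log2 change over both segments was 0.19 (SE 0.164, adjusted p = 0.507). Col4a3, Col4a4 and Col4a6 were low, at mean RPKM of 0.151, 0.0881 and 0.321.

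Among the network-forming collagens, Col8a1, a short chain of vessel walls and of the cornea, had 8.83 and 5.05 CPM in lumbar WT against 3.52 and 4.64 in lumbar TKO, and 10.005 and 12.2 in thoracic WT against 3.05 and 4.37 in thoracic TKO. All TKO values were below all WT values, though lumbar WT replicate 2 lay close to them. The log2 change was -1.17 (SE 0.228, adjusted p = 0.0746), and DESeq2 called it lower. Its partner Col8a2 had a log2 change of -0.46 (adjusted p = 0.270).

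The beaded filament collagens of type VI, which link cells to surrounding matrix, had 6 of 6 members below 0 (median log2 change -0.32). None passed the edgeR threshold, and 1 was lower at an unadjusted p under 0.05, beside 8.79% of all genes. The signs of Col6a2, Col6a4 and Col6a5 each turned when certain single libraries were left out. DESeq2 called 1 of the 6, Col6a3, lower. Col6a3 had 11.3 and 7.76 CPM in lumbar WT against 4.09 and 5.74 in lumbar TKO, and 7.76 and 13.3 in thoracic WT against 5.44 and 7.12 in thoracic TKO. No TKO value reached a WT value, and the log2 change was -0.85 (SE 0.232, adjusted p = 0.141). Col6a1, the most abundant of them, had 42.6 and 27.2 CPM in lumbar WT against 21.8 and 31.1 in lumbar TKO, and 24.1 and 36 in thoracic WT against 18.1 and 35.5 in thoracic TKO. The groups overlapped, with a log2 change of -0.28 (SE 0.253, adjusted p = 0.531). Col6a6 reads were 90.9% intronic and 30.5% uniquely placed, so its value is uncertain.

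Of the transmembrane collagens, Col25a1 is required in mice for motor axons to innervate muscle. It had 32.6 and 29.5 CPM in lumbar WT against 27.8 and 23.3 in lumbar TKO, and 41.6 and 40.2 in thoracic WT against 29.0 and 29.6 in thoracic TKO. Each segment was separate by genotype, though thoracic TKO replicate 2 lay just above lumbar WT replicate 2. The log2 change was -0.38 (SE 0.116, adjusted p = 0.164). Col23a1 had 64.2 and 45.1 CPM in lumbar WT against 58.3 and 51.4 in lumbar TKO, and 63.1 and 61.2 in thoracic WT against 53.4 and 56.8 in thoracic TKO. The groups overlapped, with a log2 change of -0.08 (SE 0.134, adjusted p = 0.728).

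Taken segment by segment, no collagen passed with edgeR. In lumbar cord 0 of 42 were called, beside 0.041% of all genes, while 3 were higher and 9 lower at an unadjusted p under 0.05, beside 2.98% and 2.71% of all genes. DESeq2 called 1 there, Col20a1, among 39 genes in all, and limma-voom 0. In thoracic cord 0 of 42 were called, beside 0.0352% of all genes, while 8 were higher and 8 lower at an unadjusted p under 0.05, beside 11.7% and 8.23%. In thoracic cord DESeq2 called 8 (Col20a1, Col11a2 and Col9a3 higher, Col14a1, Col1a1, Col1a2, Col3a1 and Col8a1 lower) among 410 genes in all, and limma-voom called 0. The lumbar and thoracic changes had the same sign for 33 of 42 collagens, 20 below 0 and 13 above. The difference of the genotype effects passed for 0 of 42 (beside 0.00586%) in edgeR, DESeq2 and limma-voom, with 0 at an unadjusted p under 0.05, beside 3.5%.

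**Figure D4:**
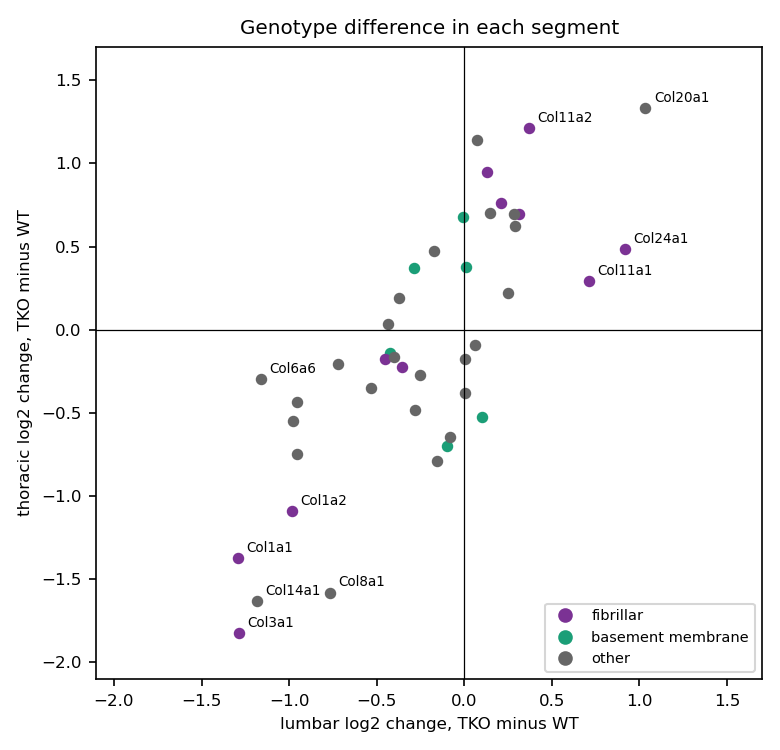
Log2 change, TKO minus WT, in lumbar (x) and thoracic (y) cord, 1 point per collagen tested, coloured by class. Col14a1, Col3a1, Col1a1, Col1a2 and Col8a1 are below 0 in both segments, Col20a1, Col11a2, Col24a1 and Col11a1 above 0 in both, and 33 of 42 points share a sign.

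Between segments, thoracic minus lumbar over both genotypes, 0 of 42 collagens passed in edgeR, beside 0.082% of all genes, with 1 higher and 5 lower at an unadjusted p under 0.05, beside 1.02% and 1.39%. DESeq2 called 2, Col6a6 and Col15a1, among 31 genes in all, and limma-voom 0. Col15a1, a multiplexin of basement membrane zones in muscle, nerve and vessel, had 32.7 and 18.2 CPM in lumbar WT against 10.4 and 25 in lumbar TKO, and 8.73 and 10.5 in thoracic WT against 5.44 and 9.64 in thoracic TKO. All lumbar values but that of TKO replicate 1 exceeded every thoracic value, and the log2 change was -1.32 (adjusted p = 0.904). The summed CPM of 8 Schwann cell markers was 391 in lumbar TKO replicate 1, 1822 in replicate 2, 2698 and 1644 in lumbar WT, and 242 to 479 in thoracic libraries. Lumbar TKO replicate 1 thus stood apart from the other lumbar libraries for these markers as well as for Col15a1. Without it the Col15a1 log2 change was -1.57 (adjusted p = 0.107). The part of these markers in the Col15a1, Col1a1 and Col3a1 values was not tested.

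Col4a1 and Col4a2 lie head to head on chromosome 8 and are known to share a promoter. Their RefSeq windows, 250 bases before to 50 after the start (GRCm38.p6), overlap by 78 bases and are printed because the ratio of these chains separated the genotypes. Motifs in capitals are the CCAAT box (CCAAT, or ATTGG on the other strand) and the GC box (GGGCGG, or CCGCCC). Windows are chr8:11312777-11313076 (minus strand) and chr8:11312555-11312854 (plus strand).
Col4a1: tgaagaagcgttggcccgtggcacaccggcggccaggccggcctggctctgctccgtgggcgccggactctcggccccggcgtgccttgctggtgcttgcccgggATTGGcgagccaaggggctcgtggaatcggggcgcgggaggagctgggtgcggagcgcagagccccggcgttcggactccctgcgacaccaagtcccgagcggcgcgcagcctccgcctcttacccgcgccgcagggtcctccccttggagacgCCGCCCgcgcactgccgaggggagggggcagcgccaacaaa
Col4a2: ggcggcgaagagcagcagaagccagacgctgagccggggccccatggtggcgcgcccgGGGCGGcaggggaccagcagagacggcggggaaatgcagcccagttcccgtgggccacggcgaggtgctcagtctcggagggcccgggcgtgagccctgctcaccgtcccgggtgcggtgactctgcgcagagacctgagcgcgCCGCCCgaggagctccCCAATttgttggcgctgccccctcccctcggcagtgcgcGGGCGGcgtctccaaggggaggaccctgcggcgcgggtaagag
Each window has 1 CCAAT box, and GC boxes number 1 for Col4a1 and 3 for Col4a2. The Col4a1 GC box lies in the shared stretch and is also 1 of the 3 counted for Col4a2.

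For comparison, windows of the fibrillar genes Col1a2 (chr6:4505368-4505667, plus strand) and Col3a1 (chr1:45311288-45311587, plus strand) are given, with the TATA motif (TATAAA, or TTTATA on the other strand) also in capitals.
Col1a2: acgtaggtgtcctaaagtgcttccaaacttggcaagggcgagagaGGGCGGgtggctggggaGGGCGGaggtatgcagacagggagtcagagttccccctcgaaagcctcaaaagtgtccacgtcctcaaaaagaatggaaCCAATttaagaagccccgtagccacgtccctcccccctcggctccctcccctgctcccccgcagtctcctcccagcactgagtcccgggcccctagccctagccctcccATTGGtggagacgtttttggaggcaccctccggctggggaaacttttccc
Col3a1: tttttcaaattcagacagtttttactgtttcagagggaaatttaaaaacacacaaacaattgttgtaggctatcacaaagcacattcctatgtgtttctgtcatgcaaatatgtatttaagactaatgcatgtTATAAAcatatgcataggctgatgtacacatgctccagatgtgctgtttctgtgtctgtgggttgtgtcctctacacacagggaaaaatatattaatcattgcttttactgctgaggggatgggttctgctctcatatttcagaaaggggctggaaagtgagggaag
Col1a2 has 2 CCAAT and 2 GC boxes and no TATA motif, whereas Col3a1 has 1 TATA motif and neither box. RefSeq windows were matched for 35 members, 38 windows in all. CCAAT was present in 34.2% of collagen windows and in 37.4% of all 32851, the GC box in 60.5% and 35.7%, and TATA in 13.2% and 13.6%. A match is a description of these letters.

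Col4a1 had 104 and 60.9 CPM in lumbar WT against 53.9 and 81.4 in lumbar TKO, and 44.4 and 62.0 in thoracic WT against 68.2 and 69.6 in thoracic TKO. Col4a2 had 77.5 and 44.1 CPM in lumbar WT against 47.3 and 73.8 in lumbar TKO, and 34.4 and 46.8 in thoracic WT against 58.3 and 71.4 in thoracic TKO. For each gene the genotypes overlapped in lumbar cord, while both thoracic TKO values lay above both thoracic WT values. Over both segments the log2 changes were 0.04 (adjusted p = 0.917) and 0.34 (adjusted p = 0.396). The ratio Col4a1/Col4a2, in RPKM, was 1.20 and 1.22 in lumbar WT against 1.01 and 0.975 in lumbar TKO, and 1.15 and 1.16 in thoracic WT against 1.04 and 0.873 in thoracic TKO. No TKO ratio reached a WT ratio in either segment. The mean log2 ratio was -0.04 ± 0.11 in TKO and 0.24 ± 0.04 in WT (SD, n = 4 each), a difference of -0.28. A two-sided exact permutation test gave p = 0.0286, the smallest that 4 against 4 allows. After adjustment over the 4 ratios tested it was 0.114, so it does not pass. The test pooled the segments and took the 4 libraries of a genotype as independent, which the labels do not state. The gene regions overlap by 22 bases, and strand use in the counting is not given in the sources used here. Counted as unique exon reads per exon length, the difference was also -0.28.

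Other chain pairs gave smaller or more variable differences. Col1a1/Col1a2 ran from 0.597 to 0.976 over the 8 libraries, with a log2 difference of -0.33 (exact permutation p = 0.0571, adjusted 0.114). Col5a1/Col5a2 differed by -0.06 (exact permutation p = 0.886) and Col6a1/Col6a2 by -0.14 (exact permutation p = 0.429, adjusted 0.571).

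**Figure D5:**
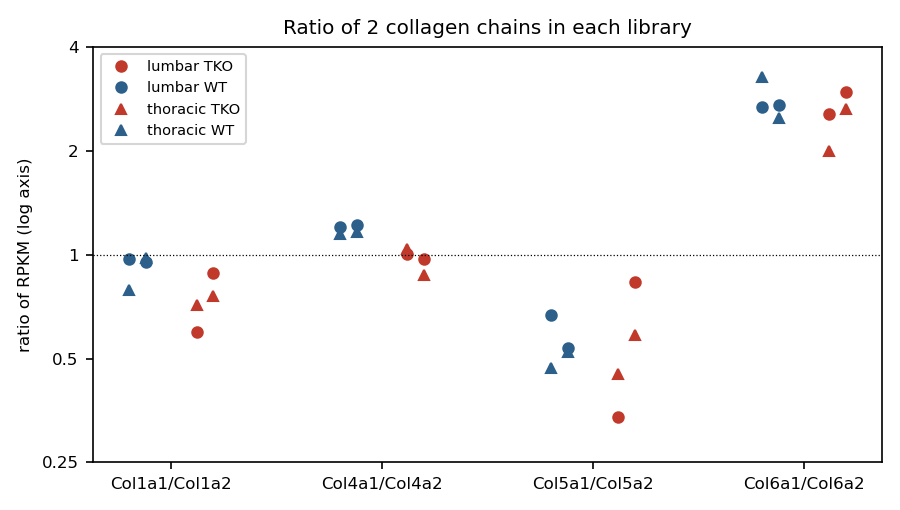
Ratio of RPKM of 2 chains in each library (log axis; dotted line, 1), red TKO and blue WT, circles lumbar and triangles thoracic. Col4a1/Col4a2 lies from 0.873 to 1.04 in TKO and from 1.15 to 1.22 in WT, while the other pairs overlap between genotypes.

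Over both segments, the 9 collagens with a seed match had log2 changes from -0.73 for Col6a6 to 0.42 for Col9a3, and none passed in edgeR. Col9a3 was higher and Col12a1 lower at an unadjusted p under 0.05, beside 10.3% and 8.79% of all genes. Neither DESeq2 nor limma-voom called any of the 9 over both segments. DESeq2 did call Col9a3 higher in thoracic cord and Col6a6 between segments, as given above.

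Genes that make, cut, bind or induce collagen were read from lists of genes outside the family. Counts below are over both segments, where 0.357% of all genes passed in edgeR. At an unadjusted p under 0.05, 10.3% of all genes were higher and 8.79% lower. Of 30 genes of collagen processing and cross-linking, 0 passed in edgeR (5 higher and 5 lower at an unadjusted p under 0.05), with a median log2 change of 0.05. Lox, the lysyl oxidase that cross-links fibres, averaged 1.67 ± 0.618 CPM in TKO and 4.43 ± 1.09 in WT (SD, n = 4 each), a log2 change of -1.43 (adjusted p = 0.0640). Crtap, of the prolyl 3-hydroxylation complex, had -0.68, Sparc, a collagen chaperone, 0.40, and Plod3, a lysyl hydroxylase, 0.53, with adjusted p from 0.114 to 0.175. Of 12 breakdown genes 0 passed, and 0 had an unadjusted p under 0.05. Of 12 collagen receptors 0 passed (2 higher and 2 lower unadjusted). The kinases Ddr2 and Ddr1, which fibrillar collagens activate, had log2 changes of -0.63 and 0.72 (adjusted p 0.0963 and 0.147).

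Of 17 basement membrane partners 0 passed (2 higher and 5 lower unadjusted), with a median log2 change of 0.03. Npnt, nephronectin, had the smallest p, at a log2 change of -0.63 (adjusted p = 0.0913). Among 14 TGF-beta and fibrosis factors (1 higher and 2 lower unadjusted) 1 fell, beside 0.135% of all genes, namely Postn, the matricellular protein periostin. It averaged 4.08 ± 0.650 CPM in TKO and 11 ± 2.60 in WT (SD, n = 4 each), a log2 change of -1.43 (SE 0.219, adjusted p = 0.0375). Smad7, an inhibitor of TGF-beta signalling, was higher in all 4 TKO libraries than in any WT library, at a log2 change of 0.65 that did not pass (SE 0.146, adjusted p = 0.0995).

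Markers of some other cells in the tissue differed by genotype beside the collagens. Over both segments, 0.223% of all genes rose and 0.135% fell. At an unadjusted p under 0.05, 10.3% of all genes were higher and 8.79% lower. Of 15 meningeal fibroblast markers 15 were below 0 (13 lower unadjusted), though the marker nearest 0 was at -0.02. In this list 2 fell, Lum at a log2 change of -1.70 (adjusted p = 0.00471) and Dcn at -1.40 (adjusted p = 0.0346). Their summed CPM was 95.6 to 203 in TKO and 250 to 480 in WT, no defining marker was at 0, and the median log2 change was -1.46, beside 0.0004 over all genes. The part of this list in the differences of Col14a1, Col1a1, Col1a2 and Col3a1 was not tested. The 10 endothelial markers had a median of -0.02 and none passed (1 higher unadjusted), and the 10 mural markers one of -0.17 and none passed (1 higher unadjusted). Of 10 oligodendrocyte markers 3 rose (Klk6, Opalin and Hapln2; 9 higher unadjusted), with a median of 0.59. Their summed CPM was 57402 to 73749 in TKO and 47676 to 49971 in WT. Of 10 microglia markers 2 rose (Ctss and Csf1r; 8 higher unadjusted), with a median of 0.58 and a summed CPM of 553 to 852 in TKO and 509 to 597 in WT. Of 10 astrocyte markers none passed (6 higher unadjusted), with a median of 0.37. The part of these 3 lists in the Col20a1 difference was not tested. Red cell markers were below 0 in 7 of 7 (6 lower unadjusted), and 1 fell, Hba-a2. They summed to 44 to 106 CPM in TKO and 158 to 365 in WT. Skeletal muscle markers summed to 104 CPM in thoracic WT replicate 1, 4.63 to 9.79 in the other WT libraries and 3.42 to 13.9 in TKO. Of the 6 tested, none passed (4 lower unadjusted). Of 8 cartilage and bone markers tested, 4 were above 0 and 4 below, with a median of -0.09, and none passed (1 higher unadjusted). The part of these lists in the collagen values was not tested. With the mitochondrial share as a covariate, Col20a1 had a log2 change of 1.01 and Col14a1 one of -1.40, and both passed.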

How the data were processed

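RNA sequencing of 8 spinal cord libraries was analysed. The authors deposited, per the file headers, 1 table per library with whole-number read counts per gene (exon, intron, total and unique) and RPKM values. The genome build was mm10, per the submitters' processing notes; no aligner, counter or strand setting is named, being not given in the sources used here. Kits were for column extraction and stranded polyadenylated libraries, per the labels' protocols.

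Total gene reads were scaled with TMM and filtered with filterByExpr, and all 17067 remaining genes were tested with edgeR 4.0.16 (quasi-likelihood, robust, R 4.3.3) in 1 fit with a mean per group. P-values had Benjamini-Hochberg adjustment over all genes, threshold 0.05. Chain ratios used deposited RPKM and exact permutation tests (scipy 1.17.1). The fit was tested on counts simulated independently, with a dispersion of 0.0332 for every gene. Over both segments it recovered 88 of 100 2-fold and 100 of 100 4-fold changes, with 5 false calls among 16776 unchanged genes. The simulation held no deviations shared between libraries, so these rates need not hold for the real libraries. Libraries of 1 group differed by more than sampling noise (chi-square over its degrees of freedom, 15.6 to 70.8). Depth was 16195212 to 20907819 gene reads.

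Alternatives were RLE and upper quartile factors, DESeq2 1.42.0, limma 3.58.1 (voom, and on log2(RPKM + 0.5)), no filter, a mean of 10 reads, unique or exon reads, a replicate block, the mitochondrial share, and left-out libraries. A crossed replicate block, chosen after the data were seen, is also counted among the 21 alternatives over both segments. Members and lists were chosen with earlier results of these data known. Values in every library are given for members past the threshold, the 3 highest in RPKM per class and the 12 with the smallest p over both segments; Col15a1 was added after its values were seen. From each list up to 4 genes, those with the smallest p, and any past the threshold could be named.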

Additional observations from a re-analysis of the deposited data

How the results depend on the processing

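The count of collagens called over both segments, 2 in the reported test, was 4 with no filter and 0 on exon reads. It was 11 with the mitochondrial share as a covariate, 0 with limma on log2(RPKM + 0.5) and 8 with DESeq2. Fits with libraries left out leave a group with a single library, and their counts are not compared here. The lumbar count, 0, became 7 with the mitochondrial covariate (197 of all genes) and 1 with DESeq2 (39). The thoracic count, 0, became 3 with no filter (65 of all genes), 10 with the covariate (987) and 8 with DESeq2 (410). The segment count, 0, became 2 with DESeq2 (31 of all genes). The cause was not tested. DESeq2 called 631 of all genes over both segments where edgeR called 61. The covariate fit called 807, no filter 310, unique reads 104, exon reads 12 and limma on RPKM 5.

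Replicate numbers did not pair all samples: deviations of same-numbered libraries correlated at 0.537 to 0.682 among lumbar TKO, thoracic TKO and thoracic WT, and at -0.552 to -0.488 between each of these and lumbar WT (13421 genes). With the replicate block, 6 collagens (Col1a1, Col1a2, Col3a1 and Col8a1 besides Col14a1 and Col20a1) and 222 genes were called over both segments. A crossed block with the lumbar WT numbers swapped, chosen after the data were seen, called 20 collagens over both segments (4760 of all genes), 6 lumbar (396), 14 thoracic (4991), 2 for the difference of effects (323) and 2 between segments (47).

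The fibrillar median log2 change of 0.49 was 0.0602 with the covariate and -0.0380 without both TKO replicate 2 libraries. Among all 42 collagens, signs changed in 9 of 21 alternatives for Col22a1, 5 for Col4a1, 4 each for Col9a2 and Col18a1, 2 for Col6a4, and 1 each for Col4a3, Col4a6, Col5a3, Col6a2, Col6a5 and Col23a1. Of members given in every library, signs reversed for Col23a1 without lumbar WT replicate 1 (0.0548), and for Col4a1 with the covariate (-0.19), without both TKO replicate 2 libraries (-0.13) and in left-out-library fits (-0.12 to 0.26). The Col5a1/Col5a2 log2 difference ranged from -0.29 to 0.14 with a library left out. Col20a1 and Col14a1 kept their direction in all 21 alternatives, the crossed block included, and passed in 13 and 11. With 2 libraries per group and 4 residual degrees of freedom, differences short of the threshold cannot be read as absent.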
